A study of Mus musculus with 3 samples.

Results

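Neural spots were the spots of 3 Visium arrays in which a fraction of at least 0.02 of the transcripts was assigned to the Neural cell type. There were 111 such spots among 2758. The section taken 2 days post-injury (dpi) held 34 among 859 spots, that of 5 dpi held 28 among 933, and that of 7 dpi held 49 among 966. The spots were chosen by theta, the part of the RNA in a spot that BayesPrism assigned to each of 27 cell types, with 27 values that sum to 1. Theta is a fraction of RNA and not of cells, so fewer cells of a type and less RNA per cell cannot be told apart. Neural theta is given as a description, and the other thetas come from the same deconvolution and are not independent of it. No gene-level table was analysed here, so the name could not be checked against Schwann cell or nerve genes, and Neural is used as the name of the reference cell type.

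Skeletal muscle is innervated by nerve branches that enter with the blood vessels and divide in the connective tissue between bundles of fibers. Within them axons are ensheathed by Schwann cells, the glia of peripheral nerve, and the nerve is enclosed by perineurial cells and fibroblasts. Motor axons end at neuromuscular junctions, where terminal Schwann cells cover the synapse. The cell bodies of these neurons lie outside the muscle, so glia and sheath cells are the usual sources of nerve RNA in a muscle section.

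The sections were from tibialis anterior muscles of female C57BL6/J mice aged 5 months, all injected with notexin, a snake venom phospholipase that destroys myofibers. Muscles were taken 2, 5 or 7 days later and frozen, and each time point was 1 section in its own capture area. Time point, animal and capture area cannot be told apart, no uninjured section was analysed here, and no test was made between sections. Spots of 1 section share an animal and a library and are not replicates, so no test was made between spots either. The sections held 5710385, 10803761 and 14734531 unique molecular identifiers (UMIs, the count of captured transcripts) at 2, 5 and 7 dpi, with a median of 5786, 11221 and 15135 per spot.

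Few spots carried a high Neural theta, and those that did were most marked at 7 dpi. Neural spots made up 3.96%, 3.001% and 5.07% of spots at the successive time points. The exact Clopper-Pearson 95% intervals, which cover the counting of spots only, were 2.76 to 5.49%, 2.00 to 4.31% and 3.78 to 6.65%, and they overlap. Over all spots the median Neural theta was low in each section, at 0.00432, 0.00165 and 0.00137. Within the neural spots it ran from 0.0204 through a median of 0.0304 to 0.103 at 2 dpi. The range at 5 dpi was 0.0208 to 0.555 with a median of 0.0389. At 7 dpi it was 0.0228 to 0.680 with a median of 0.103. The sections thus differed less in how many spots passed the minimum than in how far above it those spots lay. A theta of 0.1 was reached in 1, 3 and 25 neural spots, and 0.5 in 0, 1 and 8. Neural was the leading cell type of the spot in 0, 2 and 15 of them. The neural spots held 21.99%, 46.2% and 83.7% of the Neural theta summed over their section. The spots nearest the minimum on each side were close to each other, at 0.0204 and 0.0198 at 2 dpi, 0.0208 and 0.0199 at 5 dpi, and 0.0228 and 0.0195 at 7 dpi.

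**Figure D1:**
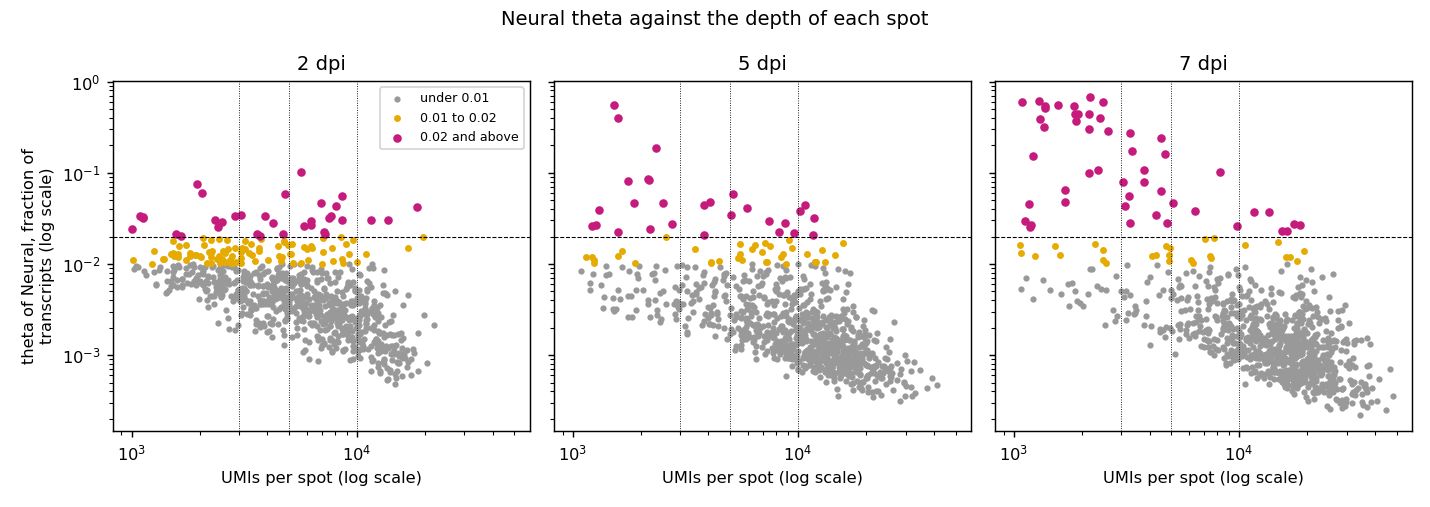
Neural theta (fraction of transcripts, log scale) against UMIs per spot (log scale) for every spot of the sections at 2, 5 and 7 dpi. The dashed line is the minimum of 0.02, dotted lines are the UMI range limits of 3000, 5000 and 10000, and colors mark the comparison spots under 0.01, the spots between and the neural spots. The highest values, up to 0.680, stand at the shallow end at 5 and 7 dpi and not at 2 dpi.

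Neural spots were shallower than the sections they lay in. Their median depth was 4458, 3281 and 2487 UMIs at 2, 5 and 7 dpi, against the section medians given above. Of spots with 1000 to 3000 UMIs, 12 of 183 (6.56%) were neural at 2 dpi, 14 of 76 (18.4%) at 5 dpi and 26 of 60 (43.3%, interval 30.6 to 56.8%) at 7 dpi. Above 10000 UMIs the shares were 1.67%, 0.749% and 0.862%. The share of neural spots under 3000 UMIs was 2.01, 11.3 and 17.1 times that of the deeper spots. When every other type except the myonuclei was given the same minimum, 13 of 24 had a higher ratio than Neural at 2 dpi. None of 23 did at 5 or 7 dpi, where the next highest were B cells at 5.64 and 7.55. Tenocytes, the fibroblasts of tendon and of its junction with muscle, gave 1.84 and 2.96, and smooth muscle gave 0.282 and 1.02. Over all spots Spearman's rho between Neural theta and UMIs was -0.62, -0.68 and -0.63 (n = 859, 933 and 966 spots of 1 library each). This depth dependence also weighs on section means. The mean Neural theta over spots was 0.00639, 0.00496 and 0.0128, but 0.00503, 0.00259 and 0.00328 when spots were weighted by UMIs. The highest mean was therefore that of 7 dpi without weights and that of 2 dpi with them. The part of depth in the Neural theta of a spot was not tested.

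The product of theta and UMIs scales theta by the depth of a spot, as a rough index of its Neural RNA. It was 188 to 1480 with a median of 759 in the 25 spots at 7 dpi with a theta of at least 0.1. The limits on theta and on UMIs that chose these spots fix most of this value, so it is given as a description and not as a comparison. The product for the myonuclei, the RNA of mature fibers, had a median of 563 in the same spots. At 5 dpi the 3 spots at or above 0.1 had Neural products of 442 to 844. The single such spot at 2 dpi had a Neural product of 580 and a myonuclei product of 4143. In the other 33 neural spots at 2 dpi the Neural product was 24.1 to 774 with a median of 132. The product is not a count of transcripts, because theta was estimated on a list of marker genes of the cell types. UMIs count all genes, also the mitochondrial and ribosomal protein genes that were left out of that list.

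To set depth aside as far as the table allows, neural spots were compared with spots under a Neural theta of 0.01 in the same section and the same range of 1000 to 3000, 3000 to 5000 or 5000 to 10000 UMIs. For each measure the share of pairs is given, that is, the share of all pairs of a neural and a comparison spot of a range in which the neural spot was higher. A share of 0.5 is an even split, tied pairs count 0.5, and ranges with fewer than 5 spots on a side were left out. This kept 31, 21 and 39 neural spots at 2, 5 and 7 dpi. The range of 3000 to 5000 UMIs at 5 dpi (3 neural spots) and that of 5000 to 10000 at 7 dpi (4 neural spots) did not enter, nor did the 3, 4 and 6 neural spots above 10000.

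Mitochondrial transcripts, which are abundant in oxidative muscle fibers, were lower in the neural spots of up to 5000 UMIs at 7 dpi, and the 5 dpi section was split by depth. The share of pairs was 0.464, 0.605 and 0.284 at 2, 5 and 7 dpi. With spots over 10000 UMIs included the 7 dpi value turned to 0.672, since the 6 neural spots of that depth form pairs with 684 comparison spots. At 7 dpi, with 1000 to 3000 UMIs, the 26 neural spots held 6.37 to 21.8% mitochondrial UMIs with a median of 10.3%. The 25 comparison spots held 8.66 to 29.9% with a median of 16.8%. The ranges of the groups overlap, and the medians of the next range were 13.9% and 15.7%. At 5 dpi the neural median was below that of the comparison spots with 1000 to 3000 UMIs, at 14.9% against 20.2%. It was above it with 5000 to 10000 UMIs, at 29.8% against 22.3%. The shares of pairs in these ranges were 0.361 and 0.719, so the pooled 0.605 describes neither. At 2 dpi the medians differed by less than the spread in each range, for example 17.1% against 18.1% in the shallowest. Within the 49 neural spots at 7 dpi mitochondrial percent was lower where Neural theta was higher (rho = -0.79), and in the 8 spots at or above 0.5 it was 6.37 to 10.1%. Depth moved with it too, with a rho of -0.49 between theta and UMIs in the same spots. Without the spots at or above 0.1, a setting added after the data were seen, the share of pairs at 7 dpi was 0.419.

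Genes detected per UMI, a measure of how evenly transcripts are spread over genes, were higher in the neural spots at 7 dpi. The shares of pairs were 0.586, 0.510 and 0.822. With 1000 to 3000 UMIs at 7 dpi the neural spots had 0.446 to 0.638 genes per UMI (median 0.540) and the comparison spots 0.306 to 0.553 (median 0.449), so the groups overlap in part. With 3000 to 5000 UMIs the medians were 0.415 and 0.377. The ratio falls with depth, and the neural spots of the shallowest range were somewhat shallower, with a median of 1682 UMIs against 2016. Against the 5 comparison spots nearest in UMIs the share of pairs was 0.791. At 5 dpi the ranges again went apart, with 0.737 in the shallowest and 0.404 in the deepest. At 2 dpi all 3 ranges were above an even split, at 0.611, 0.639 and 0.555. In the shallowest of them the neural median was still slightly below that of the comparison spots, at 0.492 against 0.498. The neural spots there were also shallower, with a median of 1796.5 UMIs against 2186.

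Ribosomal protein transcripts, which are high in many immune and proliferating cells, were near an even split in the neural spots at 2 and 7 dpi. The shares of pairs were 0.541, 0.356 and 0.504 at 2, 5 and 7 dpi. At 7 dpi the medians were 8.03% in neural and 8.95% in comparison spots with 1000 to 3000 UMIs, and 8.28% and 7.95% with 3000 to 5000. At 2 dpi the corresponding medians were 6.40% and 6.82%, and 6.76% and 5.78%. The value below an even split at 5 dpi came from the 7 neural spots with 5000 to 10000 UMIs, which held 4.75 to 6.51% against a comparison median of 6.73%. With 1000 to 3000 UMIs in that section the share was 0.527.

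**Figure D2:**
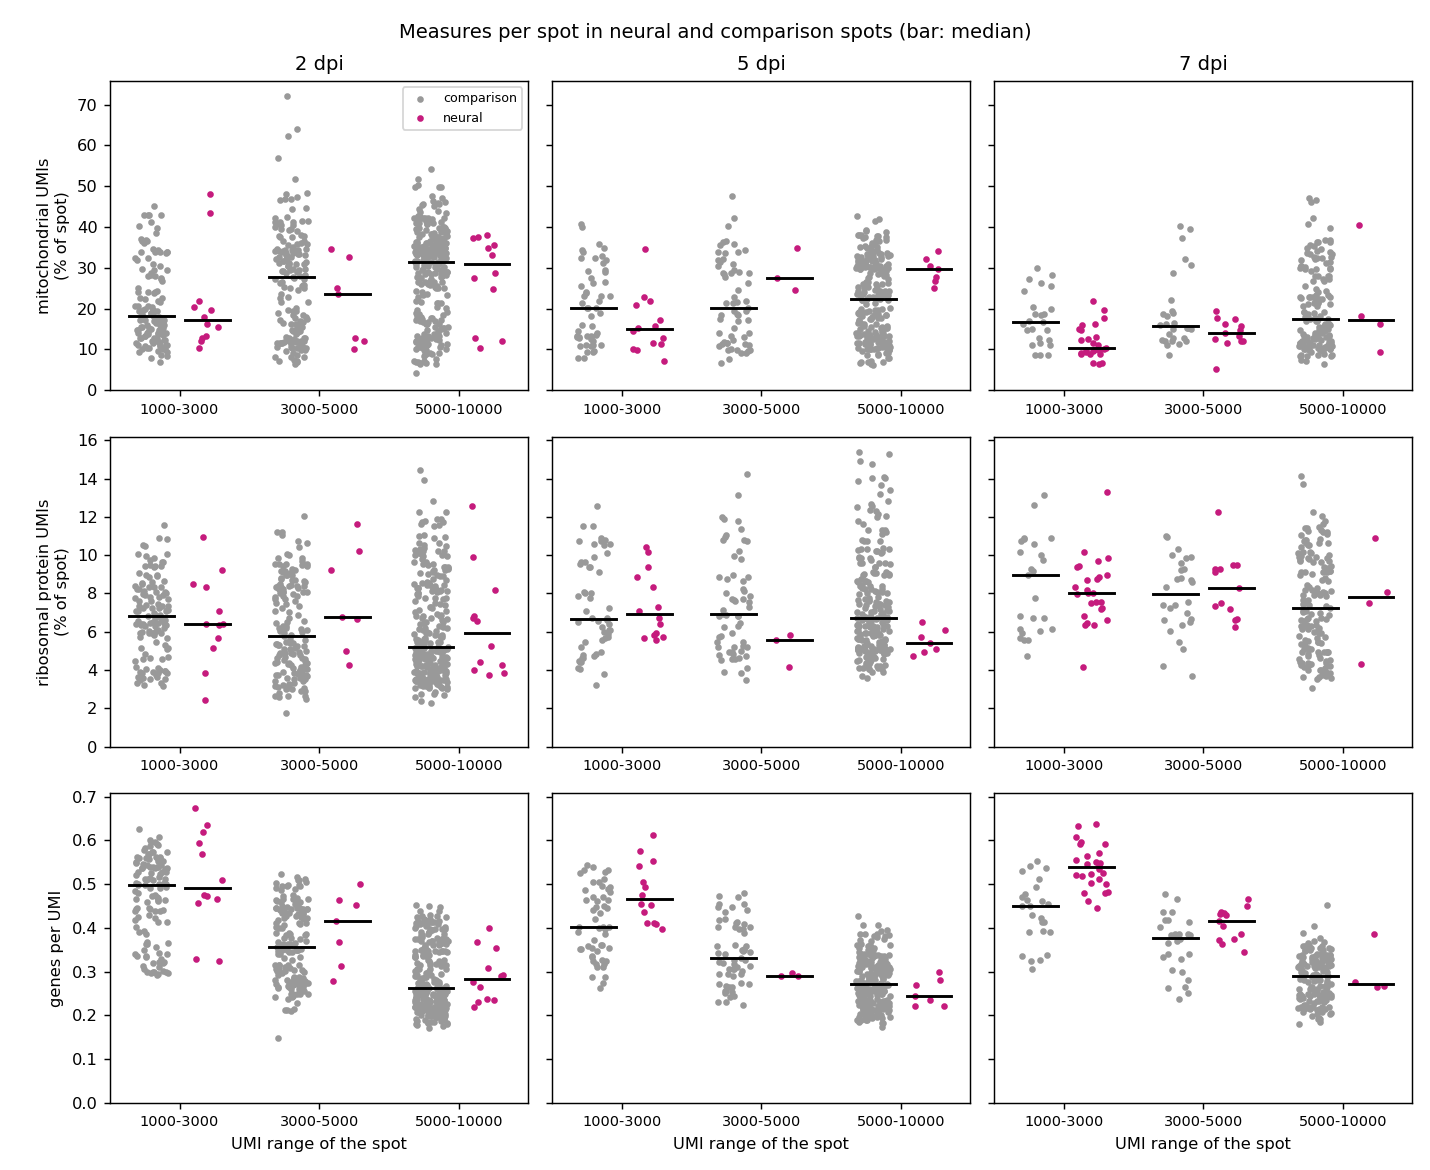
Mitochondrial percent, ribosomal protein percent (both as a percent of a spot's UMIs) and genes per UMI in neural and comparison spots, by UMI range and section. Each point is a spot and each bar a median. At 7 dpi with 1000 to 3000 UMIs the neural median was 10.3% against 16.8% for mitochondrial percent and 0.540 against 0.449 for genes per UMI.

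Set beside spots chosen in the same way for other cell types, the neural spots were at or near the bottom in ribosomal protein percent. Each type except the myonuclei was put in the place of Neural, with the same minimum, the same comparison limit and the same ranges. This gave a value for 23 other types at 2 dpi, 14 at 5 dpi and 15 at 7 dpi. Each of these types had more ribosomal protein transcripts than its comparison spots in over 0.5 of pairs, with a median share of pairs of 0.846, 0.894 and 0.738. Only arterial endothelial cells at 2 dpi (0.534) had a lower share than Neural, and no type did at 5 or 7 dpi. The next type above Neural was stem FAPs (fibro-adipogenic progenitors, described below) at 5 dpi (0.670) and arterial endothelial cells at 7 dpi (0.569). Taken range by range, no type lay below Neural in 4 of 7 ranges and 1 type did in 2 of them. In the range of 3000 to 5000 UMIs at 2 dpi 4 of 19 types lay below it. For smooth muscle the shares were 0.580, 0.705 and 0.633, and for tenocytes 0.628, 0.696 and 0.738. Capillary endothelial cells had 0.643 at 2 dpi and too few spots to give a value later. These shares share their sections and many of their comparison spots, and the order is a description. The summed raw myonuclei theta also set Neural apart at 2 and 5 dpi. Its share of pairs was 0.410, 0.495 and 0.207 for Neural, against medians of 0.130, 0.0954 and 0.205 for the other types. The part of myonuclei in this order, and in those of the measures below, was not tested.

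In mitochondrial percent the other types were mostly lower in their own comparison than Neural was at 2 and 5 dpi, while 7 dpi depended on the UMI range. At 2 dpi 21 of 23 types had a lower share of pairs than Neural, and at 5 dpi 14 of 14, with medians of 0.176 and 0.125. At 7 dpi 9 of 15 did, with a median of 0.247 close to the 0.284 of Neural. By range in that section, 1 of 8 types lay below the 0.242 of Neural with 1000 to 3000 UMIs. With 3000 to 5000 UMIs 6 of 11 lay below its 0.360. Smooth muscle gave 0.510, 0.291 and 0.247, and tenocytes 0.411, 0.309 and 0.299. Genes per UMI were raised in the spots of every type with a value. Neural had the lowest pooled share at 2 and 5 dpi, and at 7 dpi 11 of 15 types lay below it. By range, 1 type lay below Neural at 2 dpi with 1000 to 3000 UMIs, and 1 with 3000 to 5000. At 5 dpi 1 of 9 types lay below the 0.737 of Neural with 1000 to 3000 UMIs, and 0 of 14 below its 0.404 with 5000 to 10000. In the 7 dpi range of 1000 to 3000 UMIs, 8 of 8 types lay below its 0.882, and in that of 3000 to 5000 UMIs 5 of 11 lay below its 0.717.

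**Figure D3:**
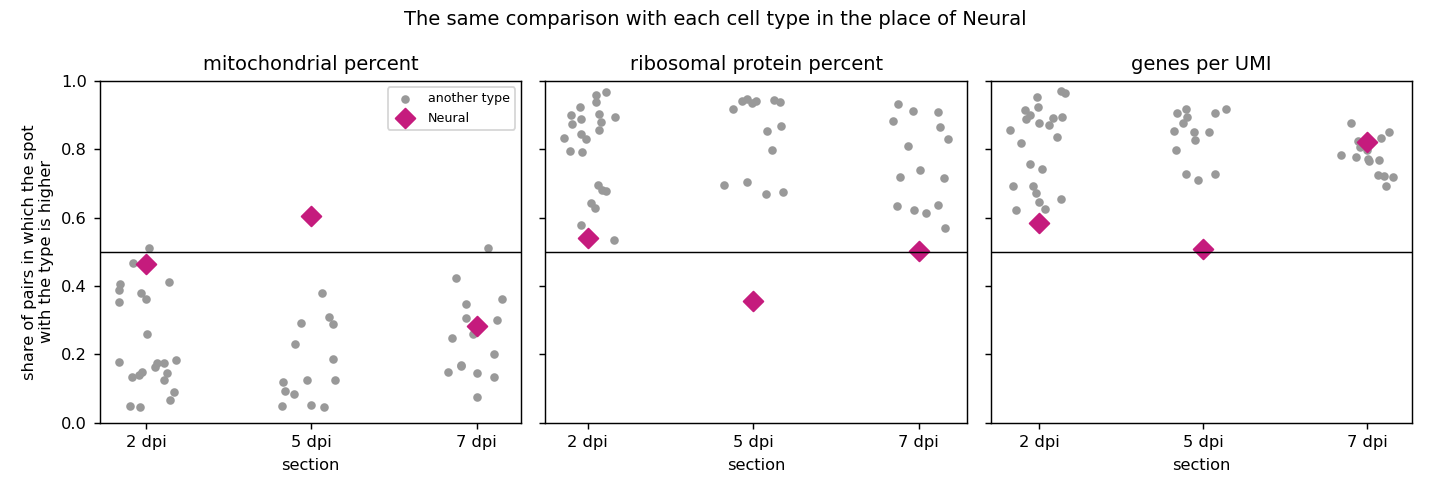
Share of pairs in which the spot chosen for a cell type was higher than its comparison spots, for mitochondrial percent, ribosomal protein percent and genes per UMI, by section. The diamond is Neural and each gray point another type. Neural lies at the bottom of the ribosomal protein panel at 5 dpi (0.356) and 7 dpi (0.504), and at the top of the mitochondrial panel at 5 dpi (0.605).

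Which cell types accompanied Neural depended on the scale, with adipogenic fibro-adipogenic progenitors and smooth muscle higher in the neural spots by some measures. Fibro-adipogenic progenitors (FAPs) are the resident mesenchymal cells of the muscle interstitium. Because the thetas of a spot sum to 1, the comparison was made on raw theta, on theta rescaled without the myonuclei types, and on theta rescaled without myonuclei and Neural. On the second scale Neural itself stays in the sum, so a high Neural theta lowers the summed share of the other types by construction. A type was counted as higher at a share of pairs of at least 0.6 and as lower at 0.4 or less. Without myonuclei, 1 of 24 types was higher at 2 dpi (4.17%) and 0 at 5 and 7 dpi (0% each), while 11 (45.8%), 9 (37.5%) and 21 (87.5%) were lower. With raw theta, 3 of 26 types (11.5%), 1 (3.85%) and 3 (11.5%) were higher at 2, 5 and 7 dpi, and 0 (0%), 2 (7.69%) and 8 (30.8%) were lower. With Neural also taken out of the sum, 1 of 24 types (4.17%), 9 (37.5%) and 7 (29.2%) were higher and 6 (25%), 1 (4.17%) and 3 (12.5%) were lower. The scale therefore decided most of these counts.

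Adipogenic FAPs, the FAP state that can give rise to fat cells, were higher in all 3 sections on the raw scale, at 0.714, 0.606 and 0.602, and without myonuclei and Neural, at 0.639, 0.666 and 0.628. No other type was higher in all 3 on either scale. Against the 5 comparison spots nearest in UMIs the shares were 0.723, 0.567 and 0.549 raw, and 0.619, 0.658 and 0.553 without myonuclei and Neural, so the 7 dpi section no longer counted as higher on either scale, nor the 5 dpi section on the raw scale. The ratio of mean raw thetas was 1.57, 1.18 and 0.951. Without myonuclei only, the shares of pairs were 0.609, 0.577 and 0.441. At 2 dpi the raw medians were above those of the comparison spots in each range, at 0.0121 against 0.00962, 0.0124 against 0.00722, and 0.0102 against 0.00555. At 7 dpi they were 0.0182 against 0.0145 and 0.0286 against 0.0137. An adipogenic FAP theta of at least 0.02 was held by 8 of 31 neural spots at 2 dpi (25.8%, interval 11.9 to 44.6%) against 8.31% of comparison spots weighted to the same UMI ranges. The values were 3 of 21 (14.3%) against 14.04% at 5 dpi and 20 of 39 (51.3%, interval 34.8 to 67.6%) against 40.0% at 7 dpi. The comparison percent thus lay below the counting interval at 2 dpi alone, which is a description and not a test. The highest adipogenic FAP theta of a neural spot, 0.199 at 7 dpi, stood in a spot with a Neural theta of 0.0283.

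The other stromal types were less regular. Stem FAPs, a progenitor-like state, had shares without myonuclei and Neural of 0.521, 0.574 and 0.621. Pro-remodeling FAPs, which lay down matrix, had 0.520, 0.457 and 0.462. Tenocytes had 0.526, 0.634 and 0.486. On the scale without myonuclei only, the same types had 0.466, 0.459 and 0.399, then 0.460, 0.342 and 0.269, then 0.476, 0.512 and 0.264.

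Vessel types, whose larger branches run beside nerves, varied with the section and the scale. Smooth muscle, the contractile wall of arteries and veins, had raw shares of 0.657, 0.478 and 0.598, and 0.592, 0.546 and 0.648 without myonuclei and Neural. A smooth muscle theta of at least 0.02 was held by 4 of 31 neural spots at 2 dpi (12.9% against 4.64%), 1 of 21 at 5 dpi (4.76% against 1.29%) and 7 of 39 at 7 dpi (17.9%, interval 7.54 to 33.5%, against 3.57%). The percent was above that of comparison spots in each section, with a single neural spot at 5 dpi. At 7 dpi the comparison percent lay below the counting interval. That interval takes spots as independent and the comparison percent as exact, so it is a description and not a test. The ratio of mean raw thetas was 1.55, 1.07 and 2.08. The highest values were in neural spots of low Neural theta, with 0.149 of smooth muscle beside 0.0475 of Neural at 7 dpi. Arterial endothelial cells had raw shares of 0.603, 0.599 and 0.379, and venous ones 0.563, 0.479 and 0.440. For capillary endothelial cells, the lining of the smallest vessels, the raw shares were 0.510, 0.561 and 0.315, and no neural spot of 39 in the ranges compared at 7 dpi held 0.02 of them (interval 0 to 9.03%), against 6.52% of comparison spots. Stem-like endothelial cells had 0.487, 0.506 and 0.417. Without myonuclei and Neural the 4 endothelial types were all higher at 5 dpi, at 0.602 to 0.641, and ran from 0.404 to 0.529 at 7 dpi. Against the 5 comparison spots nearest in UMIs, arterial and venous cells no longer counted as higher at 5 dpi, at 0.567 and 0.542. Capillary and stem-like cells had 0.608 and 0.633. With 1000 to 3000 UMIs the arterial medians at 5 dpi were 0.0211 in neural and 0.0223 in comparison spots, and the venous ones 0.0211 and 0.0212. Without myonuclei only, where Neural stays in the sum, arterial, capillary, stem-like and venous endothelial cells had 0.225, 0.184, 0.240 and 0.262 at 7 dpi. On that scale they ran from 0.356 to 0.546 at 2 and 5 dpi, and smooth muscle had 0.552, 0.449 and 0.433.

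Type IIb myonuclei, those of fast glycolytic fibers, were a large part of the neural spots compared, with median thetas of 0.522, 0.595 and 0.343, and at 7 dpi a smaller part than in comparison spots. All 31, 21 and 39 neural spots compared held at least 0.02 of them. The raw shares of pairs were 0.411, 0.478 and 0.245, and at 7 dpi the medians were 0.291 against 0.498 with 1000 to 3000 UMIs and 0.482 against 0.538 with 3000 to 5000. Because the thetas sum to 1, a Neural theta with a median of 0.377 in that shallowest range leaves less for the sum of the others. Single types can still be higher, and the part of this in the lower type IIb theta was not tested. Type IIx myonuclei, of fast fibers with more oxidative capacity, had 0.595, 0.594 and 0.429. Fusing myocytes, the myogenic cells that merge into new fibers, had raw shares of 0.574, 0.371 and 0.606 and 0.590, 0.364 and 0.668 without myonuclei and Neural. The 5 dpi value again joined unlike ranges, with raw medians of 0.0769 against 0.0422 in the shallowest and 0.0170 against 0.0899 in the deepest. Beside myonuclei and Neural, fusing myocytes had the highest theta in 15 of the 21 neural spots compared at 5 dpi (71.4%, interval 47.8 to 88.7%), against 79.8% of comparison spots weighted to the same ranges. At 7 dpi they did in 29 of 39 (74.4%, interval 57.9 to 87.0%), against 52.0%. At 2 dpi patrolling monocytes did in 11 of 31 (35.5%, interval 19.2 to 54.6%), against 40.2%. The comparison spots thus had the same leading type, and only at 7 dpi did their percent lie below the counting interval.

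**Figure D4:**
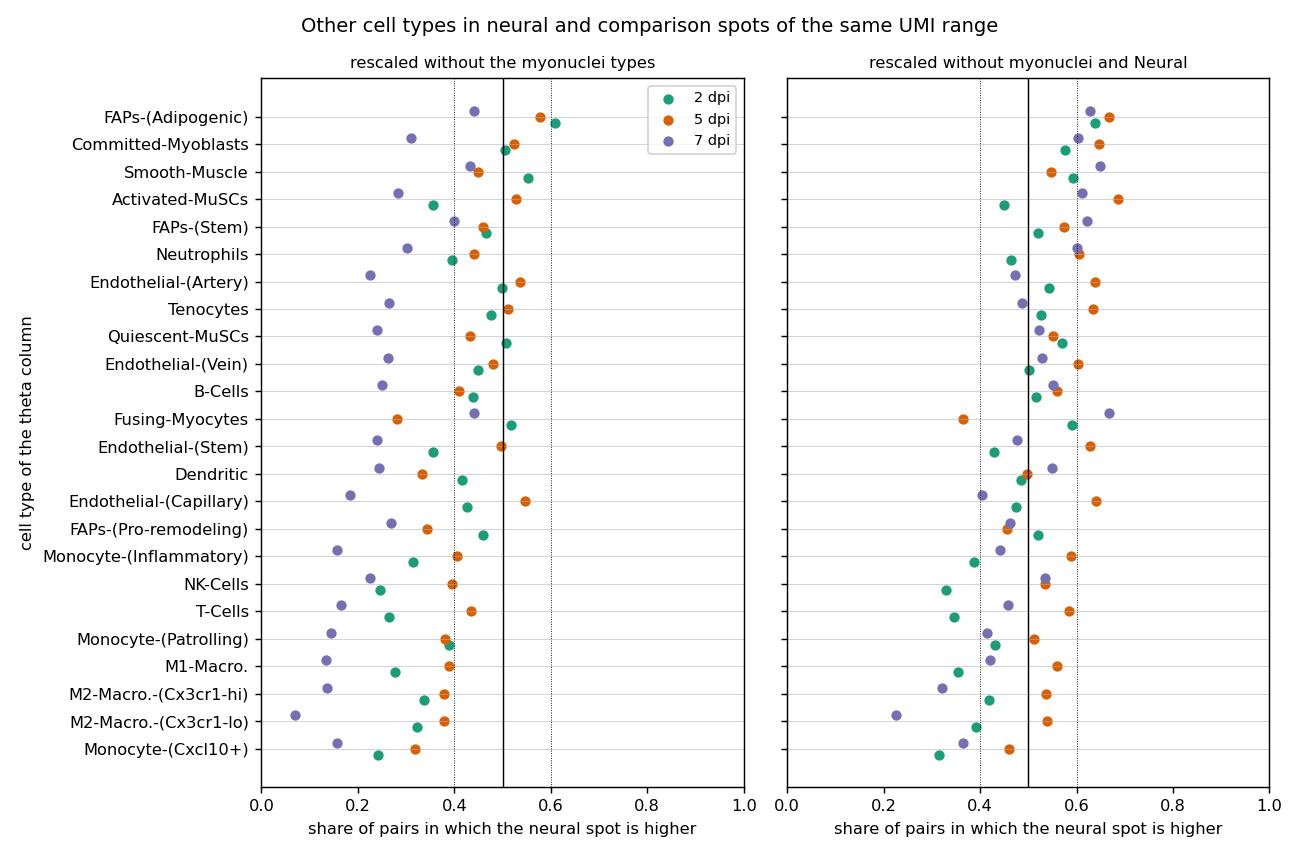
Share of pairs in which the neural spot had the higher theta, for 24 cell types on 2 scales, with points for 2, 5 and 7 dpi. The solid line marks 0.5 and dotted lines 0.4 and 0.6. On the right panel adipogenic FAPs lie at 0.628 to 0.666 in all sections, and on the left panel the 7 dpi points are shifted down.

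On the scale without myonuclei, several immune types were lower in the neural spots of every section. Monocytes and macrophages clear dead fibers after injury, and the shares of pairs were at most 0.4 throughout for M1 macrophages (0.277, 0.388 and 0.134), Cx3cr1-hi M2 macrophages (0.338, 0.379 and 0.136), Cx3cr1-lo M2 macrophages (0.323, 0.378 and 0.0700), Cxcl10+ monocytes (0.241, 0.318 and 0.156), patrolling monocytes (0.389, 0.381 and 0.145) and NK cells, given below. Part of this is built into that scale. On the raw scale the first 4 of these types lay at 0.427 to 0.489 at 2 and 5 dpi, and none counted as lower there. At 7 dpi their raw shares were 0.410, 0.324, 0.270 and 0.378 in the same order, so all but M1 macrophages counted as lower. Patrolling monocytes had raw shares of 0.482, 0.443 and 0.381, and NK cells 0.428, 0.448 and 0.484. Without myonuclei and Neural, Cx3cr1-lo M2 macrophages stayed low at 2 and 7 dpi (0.391 and 0.225) but had 0.538 at 5 dpi, and Cxcl10+ monocytes had 0.315, 0.460 and 0.364. M1 macrophages then had 0.355, 0.558 and 0.421, Cx3cr1-hi M2 macrophages 0.418, 0.537 and 0.321, and inflammatory monocytes 0.387, 0.589 and 0.442. NK, T and dendritic cells also had higher shares once Neural was taken out of the sum. NK cells went from 0.245, 0.395 and 0.225 to 0.329, 0.535 and 0.534, T cells from 0.263, 0.434 and 0.165 to 0.345, 0.584 and 0.458, and dendritic cells from 0.415, 0.333 and 0.245 to 0.485, 0.498 and 0.548. At 7 dpi Cx3cr1-lo M2 macrophages, the lowest of these, had medians of 0.0134 in neural and 0.0304 in comparison spots with 3000 to 5000 UMIs on this last scale.

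The neural spots with the highest theta differed between sections in what else they held. At 7 dpi the first had a Neural theta of 0.680 in 2166 UMIs and 1224 genes, with 0.0946 of type IIb myonuclei, 0.0455 of fusing myocytes and 6.37% mitochondrial UMIs. At 5 dpi the first had 0.555 in 1520 UMIs and 930 genes, with 0.204 of type IIb myonuclei, 0.0650 of fusing myocytes and 7.17% mitochondrial UMIs. Both were shallow spots with a lower mitochondrial percent than any comparison spot of their range. At 2 dpi the first had 0.103 in 5651 UMIs, 0.729 of type IIb myonuclei, 24.9% mitochondrial UMIs and 0.0306 of adipogenic FAPs. The third at 2 dpi held 0.0598 of Neural beside 0.235 of tenocytes. The eighth, with 18461 UMIs, held 0.0419 of Neural beside 0.468 of patrolling monocytes.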

How the data were processed

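Values per spot of 3 Visium sections were used, grouped by the treatment in the labels. The authors aligned reads to mm10; the submitters' processing notes name Space Ranger 1.0, Cell Ranger and Seurat 3.2.1. The authors deposited whole-number counts of UMIs and genes per spot, the percent of UMIs from mitochondrial, ribosomal protein and hemoglobin genes, and theta fractions from BayesPrism. By the methods, theta was estimated on a filtered list of marker genes of the cell types, without mitochondrial and ribosomal protein genes. The methods name fewer cell types than the 27 columns. Image alignments were not used. Depth limits every theta: spots under 3000 UMIs give the least precise fractions, and intervals cover counting only.

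Neural spots, comparison spots and shares of pairs were computed as stated in the text with Python 3.11.15, pandas 2.3.3 and scipy 1.17.1, and the pair code was tested on simulated data. Between 568 and 739 array barcodes occur in both of a pair of sections, since capture areas use the same barcode set, and 2 were neural in 2 sections. Types named with values were the myonuclei, endothelial, FAP, smooth muscle, tenocyte and fusing types, and others with a share of pairs of at least 0.65 or at most 0.35 in at least 2 sections on the scale without myonuclei. Patrolling monocytes and single spots were named after their values were seen. The members and lists were chosen with earlier results of these data known. Alternatives changed the minimum, comparison limit, UMI ranges and scale, and 2 were added after the data were seen.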

Additional observations from a re-analysis of the deposited data

Results flagged for a closer look

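Differences between sections are given as values, and none was tested, since each time point had 1 section. The share of pairs for mitochondrial percent was 0.605 at 5 dpi and 0.284 at 7 dpi, on opposite sides of an even split. These pooled values join different UMI ranges. With 1000 to 3000 UMIs, a range that entered in both sections, the shares were 0.361 and 0.242, on the same side. Arterial endothelial cells on the raw scale had 0.603 at 2 dpi and 0.379 at 7 dpi. Fusing myocytes had 0.371 at 5 dpi and 0.606 at 7 dpi on the raw scale, and 0.364 and 0.668 without myonuclei and Neural. Here too the pooled values join different UMI ranges. With 1000 to 3000 UMIs the raw medians of neural spots were above those of comparison spots in both sections. They were 0.0769 against 0.0422 at 5 dpi and 0.0745 against 0.0471 at 7 dpi.

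Hemoglobin percent, which none of the comparisons used, was higher in the neural spots at 2 dpi, with a share of pairs of 0.601, and at 7 dpi, with 0.657. At 5 dpi the share was 0.538. The 2 dpi value rests on small numbers: the neural median was 0% with 1000 to 3000 UMIs and 0.0058% with 5000 to 10000, and 1 neural spot reached 7.98%. It was 0.555 at 2 dpi against the 5 comparison spots nearest in UMIs.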

How the results depend on the processing

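No paired analysis was possible because each time point had 1 section. Values are given in the order 2, 5 and 7 dpi where 3 are listed. The percent of neural spots was 14.8, 6.86 and 7.87 at a minimum theta of 0.01, and 0.582, 0.75 and 3.21 at 0.05. It was 47.7, 27.1 and 17.3 on theta rescaled without myonuclei, with 2 dpi highest. Among spots of 1000 to 10000 UMIs it was 6.02 at 5 dpi and 15.9 at 7 dpi, and among spots of 5000 to 10000 it was 2.45 at 7 dpi.

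Mitochondrial percent at 5 dpi crossed an even split under several settings. Its share of pairs was 0.284 at a minimum of 0.05, 0.497 with no UMI ranges, 0.368 with narrower ranges and 0.361 with spots of 1000 to 3000 UMIs only, the last a setting added after the data were seen. Ribosomal protein percent at 5 dpi was 0.53 with narrower ranges and 0.527 with the shallowest spots only. Genes per UMI at 5 dpi was 0.775, 0.694, 0.741 and 0.737 under those 4 settings in turn. At 7 dpi mitochondrial percent was 0.424 and genes per UMI 0.638 at a minimum of 0.01, and mitochondrial percent was 0.419 without spots at or above 0.1. With spots over 10000 UMIs included, mitochondrial percent at 7 dpi was 0.672, ribosomal protein percent 0.363 and genes per UMI 0.528, where 6 neural spots form pairs with 684 comparison spots and so outweigh the other ranges. At 2 and 5 dpi under 5 neural spots were that deep and that setting changed nothing.

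Counts of companion types, out of 24, moved as follows. Higher at 2 dpi: 0 at a minimum of 0.01, with no UMI ranges, with the nearest 5 spots, without spots at or above 0.1 and in the shallowest spots, 2 with narrower ranges, 3 raw and 7 by the ratio of means. Lower at 2 dpi: 7 at 0.01, 0 raw, 6 without Neural and 17 by the ratio of means. Higher at 5 dpi: 5 at 0.01, 1 with comparison spots under 0.005, 1 raw, 9 without Neural and 2 by the ratio of means. Lower at 5 dpi: 3 at 0.01, 23 at 0.05, 19 with narrower ranges, 17 with the nearest 5 spots, 2 raw, 1 without Neural, 4 without spots at or above 0.1, 19 in the shallowest spots and 22 by the ratio of means. Higher at 7 dpi: 9 with spots over 10000 UMIs, 3 raw, 7 without Neural, 3 without spots at or above 0.1 and 1 by the ratio of means. Lower at 7 dpi: 9 with spots over 10000 UMIs, 8 raw, 3 without Neural and 13 without spots at or above 0.1. Counts with raw theta are out of 26.

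Single types crossed an even split as follows. At 5 dpi dendritic cells were 0.513 at a minimum of 0.01, NK cells 0.521 with no UMI ranges, and without Neural M1 macrophages were 0.558, Cx3cr1-hi and Cx3cr1-lo M2 macrophages 0.537 and 0.538, and NK cells 0.535. At 7 dpi stem FAPs were 0.516 with no UMI ranges, 0.601 raw and 0.621 without Neural. Without Neural at 7 dpi dendritic cells were 0.548, venous endothelial cells 0.529 and NK cells 0.534. With spots over 10000 UMIs at 7 dpi arterial, capillary, stem-like and venous endothelial cells were 0.603, 0.63, 0.632 and 0.519, stem FAPs 0.721, T cells 0.524 and tenocytes 0.519. Without spots at or above 0.1 venous endothelial cells were 0.501. A minimum of 0.05 at 2 dpi left too few spots for any share of pairs. Causes of these changes were not tested.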
